A study of Homo sapiens with 5 samples.

Results

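The sites described here are the chromatin sites of steroidogenic factor-1 (SF-1) at the starts of long noncoding RNA (lncRNA) genes. They were chosen by position alone, as the peaks whose centre lay within 1 kb of the start of an lncRNA gene of the GENCODE annotation and more than 1 kb from the start of every protein-coding gene. Of 30372 peaks in 4 lists, 1123 met this rule: 88 of 4393 in the basal Millipore list, 378 of 11910 in the overexpressed Millipore list, 305 of 6616 in the basal Perseus list and 352 of 7453 in the overexpressed Perseus list. A further 24, 287, 379 and 427 peaks, in the same order, lay near an lncRNA start but also within 1 kb of a protein-coding start, and were left out.

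The study mapped SF-1 by chromatin immunoprecipitation and sequencing (ChIP-seq). The cells, H295R/TR SF-1, are 1 subclone of H295R, an established human adrenocortical tumor line, and carry an SF-1 transgene that is switched on by doxycycline. Basal cells received no doxycycline, and SF-1 was overexpressed by 3 days of doxycycline in the same cells. Each dosage was precipitated with an antibody from Millipore and with one from Perseus, and each of the 4 lists was called by the authors on 3 pooled libraries against input DNA made from 2 libraries. There is therefore 1 list per group and no replicate error, the intervals below are 95% intervals that cover counting error over peaks only, and no p-value was computed. No RNA was measured in these files, so neither the identity of the cells nor the transcription of any lncRNA named here could be checked. The number of reads behind a list is unknown.

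SF-1 is an orphan nuclear receptor that binds DNA as a monomer at an extended single motif and controls adrenal and gonadal development and the genes of steroid synthesis. lncRNAs are transcripts without a long open reading frame, and they include antisense transcripts, transcripts that run away from the promoter of a coding gene, hosts of microRNAs or small nucleolar RNAs, and intergenic transcripts. A peak at the start of such a gene marks occupancy of its annotated promoter region, which may also act as a distal element for another gene.

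Sequences of the GRCh37 (hg19) reference at 7 loci show what these peaks hold. The SF-1 consensus was searched on both strands as NCAAGGNCN, with the first N as C or T, the second as C or T and the last as A or G. At the first 4 loci a copy, in capitals, was covered by a peak of all 4 lists, and KRT7-AS had a copy covered in 3 lists. MIR7-3HG held the best-ranked of all the peaks described and carried no SF-1 consensus. Its capitals mark the match to the consensus of neuron-restrictive silencer factor (NRSF/REST), with 3 mismatches at 19 fixed positions. The last sequence is a whole peak region covered in all 4 lists that holds neither consensus, and it has no capitals. Each is read 5′ to 3′ on the strand of the named lncRNA.

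ENSG00000260262, chr4:830643-830723, minus strand: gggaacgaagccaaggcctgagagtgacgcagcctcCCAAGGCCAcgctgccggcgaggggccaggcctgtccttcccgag
APOA1-AS, chr11:116706538-116706618, plus strand: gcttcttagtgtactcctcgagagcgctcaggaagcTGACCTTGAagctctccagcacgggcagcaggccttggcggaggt
SNHG28, chr1:159824572-159824652, minus strand: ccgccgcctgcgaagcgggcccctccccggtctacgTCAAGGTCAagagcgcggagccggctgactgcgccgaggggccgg
NRSN2-AS1, chr20:328575-328655, minus strand: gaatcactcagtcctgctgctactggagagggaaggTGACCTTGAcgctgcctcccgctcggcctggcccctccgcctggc
KRT7-AS, chr12:52641253-52641333, minus strand: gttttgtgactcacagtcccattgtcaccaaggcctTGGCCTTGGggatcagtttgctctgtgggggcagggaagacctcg
MIR7-3HG, chr19:4769549-4769641, plus strand: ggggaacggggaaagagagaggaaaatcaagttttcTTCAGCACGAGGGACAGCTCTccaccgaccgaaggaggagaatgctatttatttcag
ENSG00000284959, chr14:81636701-81636849, minus strand: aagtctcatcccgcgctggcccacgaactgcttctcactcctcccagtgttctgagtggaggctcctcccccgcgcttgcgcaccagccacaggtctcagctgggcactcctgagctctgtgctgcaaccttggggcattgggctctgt

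The copies of APOA1-AS, SNHG28 and NRSN2-AS1 were the same 9 letters, TCAAGGTCA, which read as TGACCTTGA where they lie on the strand opposite to the lncRNA. The copies of ENSG00000260262 and KRT7-AS were CCAAGGCCA. Counted in the direction of transcription, they lay at -255 bp from the start of APOA1-AS and at -61 bp from that of KRT7-AS, on the upstream side, and 249, 329 and 519 bp downstream of the starts of SNHG28, ENSG00000260262 and NRSN2-AS1.

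The comparisons between lists asked whether occupancy of noncoding starts changed with SF-1 dosage or with antibody. Peaks lay at lncRNA starts more often than the genome offers such positions in every list, and most often with the Perseus antibody. Members made up 2.00% of the basal Millipore list (Wilson interval 1.63 to 2.46%), 3.17% (2.87 to 3.50%) of the overexpressed Millipore list, 4.61% (4.13 to 5.14%) of the basal Perseus list and 4.72% (4.26 to 5.23%) of the overexpressed Perseus list. The positions that the rule admits cover 1.10% of the known bases of the genome, so the shares were 1.81, 2.87, 4.17 and 4.28 times the share of bases. With the Millipore antibody the share was higher at overexpressed than at basal dosage by 1.17 percentage points (Newcombe interval 0.623 to 1.67). With the Perseus antibody the difference was 0.113 points, with an interval from -0.590 to 0.810 that holds 0. Perseus lists had the larger share at basal dosage, by 2.61 points (1.94 to 3.26), and at overexpressed dosage, by 1.55 points (0.984 to 2.14). Peaks within 1 kb of a protein-coding start followed the same order of lists, at 4.19, 12.6, 26.4 and 26.6%. These differences between lists are therefore not particular to noncoding starts.

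**Figure D1:**
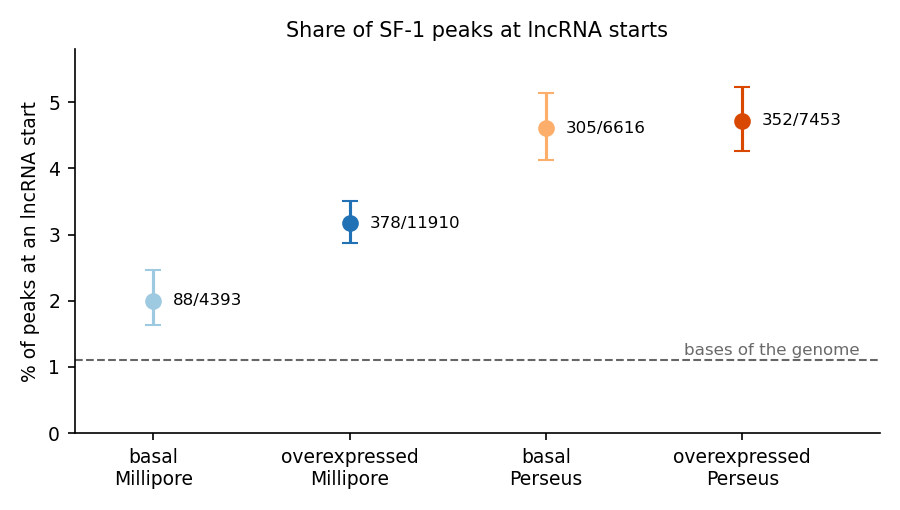
Percentage of each list's SF-1 peaks at an lncRNA start (vertical axis) for the 4 lists (horizontal axis), with 95% Wilson intervals and the number of peaks; the dashed line is the 1.10% of known bases that the rule admits. All 4 intervals lie above the line, and both Perseus points lie above both Millipore points.

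The dosage difference of the Millipore lists moved with base composition. Mean GC content of the members was 53.4% at basal and 60.5% at overexpressed dosage with the Millipore antibody, and 63.3% and 64.7% with the Perseus antibody. In every list the share at lncRNA starts was lowest among peaks under 40% GC and highest among those of at least 70% GC, from 0.551% to 7.34% in the overexpressed Millipore list and from 1.04% to 9.26% in the basal Perseus list. When the Millipore difference was weighted over strata of GC content it became -0.293 points (-0.861 to 0.274). The Perseus dosage difference became -0.271 points (-0.962 to 0.421) in the same way. Weighted over the strata, the antibody differences remained above 0, at 1.04 points (0.395 to 1.68) for basal and 1.58 points (0.943 to 2.21) for overexpressed dosage. This did not hold in each stratum at basal dosage. The Millipore and Perseus shares were 1.63 and 1.70% at 40 to 50% GC, and 9.38 and 9.26% at 70% GC or more. In the other basal strata, and in all overexpressed strata, the Perseus share was higher. Whether GC content brought about the difference between the Millipore lists was not tested. The difference was no smaller between lists of equal length, at 1.43 points (0.756 to 2.13) over the 4393 best-ranked peaks of each.

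**Figure D2:**
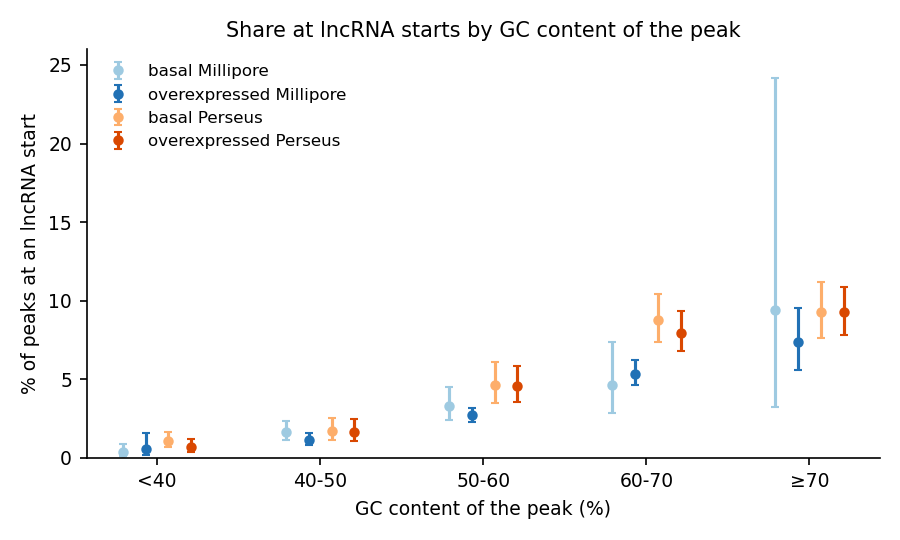
Percentage of peaks at an lncRNA start (vertical axis) by GC content of the peak in 5 strata (horizontal axis) for the 4 lists, with 95% Wilson intervals. Within a stratum the intervals of the basal and overexpressed lists of an antibody overlap; the basal Millipore list has only 32 peaks in the stratum of highest GC.

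In every list more peaks lay close to the starts than at the edge of the window, most clearly in the Perseus lists. Within 250 bp of an lncRNA start lay 29, 137, 129 and 146 peaks of the basal Millipore, overexpressed Millipore, basal Perseus and overexpressed Perseus lists, and the median distance of the members was 358, 398, 319 and 323 bp. Neither side of the start was preferred beyond counting error, as 47.7% (37.6 to 58.0%), 52.9% (47.9 to 57.9%), 48.9% (43.3 to 54.4%) and 47.4% (42.3 to 52.7%) of members lay downstream. Exons held 25.0, 31.5, 34.1 and 33.2% of the member centres and introns held 25.0, 21.7, 14.4 and 15.9%, the rest lying upstream. At the edge of the window, the outer 250 bp inside it held 16, 83, 44 and 53 peaks and the next 250 bp outside it 11, 65, 31 and 46. The basal Millipore list was not highest at the start alone. It had 13 peaks in the first 250 bp downstream, and 14 and 12 from 2000 to 2250 and from 2250 to 2500 bp downstream.

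**Figure D3:**
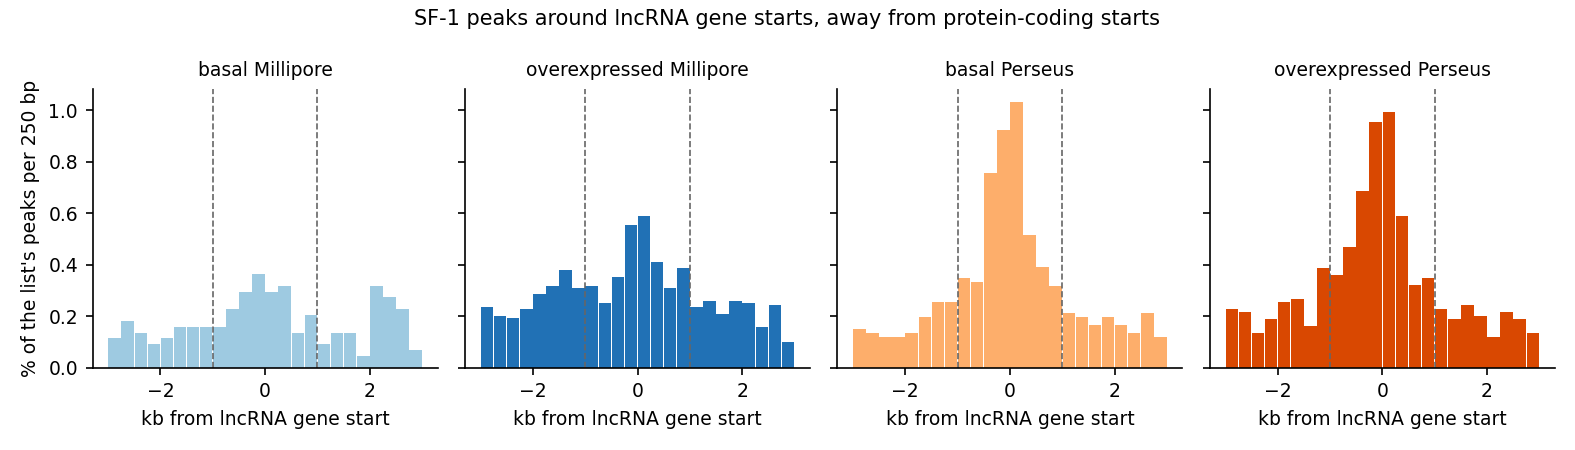
Peaks more than 1 kb from protein-coding starts, by distance of the centre from the nearest lncRNA gene start in the direction of transcription (horizontal axis, kb; dashed lines at 1 kb), as a percentage of the list per 250 bp (vertical axis). The Perseus lists rise most sharply around the start; the basal Millipore list has few peaks in any bin and a second group beyond 2 kb.

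Members were a minority of the peaks at gene starts, where the rule counts a peak near both kinds of start as protein-coding. Set beside peaks within 1 kb of a protein-coding start, they were 32.4% of both kinds together in the basal Millipore list and 20.1, 14.9 and 15.1% in the overexpressed Millipore, basal Perseus and overexpressed Perseus lists. When peaks near both were counted on each side, 112, 665, 684 and 779 peaks lay at an lncRNA start, against 184, 1504, 1748 and 1979. Among the lncRNA genes of the annotation that the rule can reach, 818 of 18635 (4.39%) had a member in at least 1 list. Protein-coding genes with a peak within 1 kb were 3987 of 20163 (19.8%). These gene shares are not on equal terms, since positions near a protein-coding start are barred for lncRNA genes only. The lists contributed 94, 386, 312 and 373 lncRNA genes. Because neighbouring lncRNAs can share a promoter, the 818 genes came down to 749 groups of starts, and 113 of the 1123 peaks lay near more than 1 lncRNA start. Of the genes, 566 had a member in 1 list, 174 in 2, 61 in 3 and 17 in all 4.

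The 17 genes in all 4 lists, 0.0912% of those the rule can reach, formed 13 groups of starts. Protein-coding genes with a peak in all 4 lists were 37, or 0.184%. Among genes with a peak in any list these were 17 of 818 and 37 of 3987, so the comparison depends on the base used. At 8 of the 13 groups a peak overlapped peaks of all the other lists, so that 1 site was shared, and 5 of these groups also had a peak off that site. Of the 13 groups 8 held the SF-1 consensus in at least 1 peak. Each group had from 4 to 6 peaks, and per peak the consensus was in 166 of all 1123 members. A count over several peaks per group is therefore no measure of enrichment at these starts. ENSG00000260262, an intergenic lncRNA 11095 bp from the start of CPLX1 on chromosome 4, had the best worst rank: its best peak ranked 272 in the basal Millipore, 611 in the overexpressed Millipore, 67 in the basal Perseus and 639 in the overexpressed Perseus list. All 4 of its peaks held the consensus shown above. ENSG00000280382, on chromosome 3, ranked 258, 240, 1271 and 401 in the same order. The rank runs from 1, the best, and ranks of lists of different length are not on one scale.

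APOA1-AS starts inside APOA1, the gene of the main protein of high density lipoprotein, on the opposite strand and 1505 bp from its start. The peaks over its shared site ranked 968, 1334, 1347 and 973, and a further peak downstream of the start, at rank 2875, was found in the overexpressed Millipore list alone. SNHG28, named as a small nucleolar RNA host, and ENSG00000272668 start close together on opposite strands within VSIG8 on chromosome 1, and their shared peak ranked 1751, 330, 735 and 81. At ENSG00000261334 on chromosome 9 the peaks over the shared site ranked 2272, 52, 1794 and 159. A separate peak of that gene, at -958 bp from its start and at rank 327, was in the basal Perseus list alone. NRSN2-AS1, antisense to the neurensin gene NRSN2 and starting 1708 bp from the start of that gene, ranked 2585, 5332, 199 and 2955.

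The other groups were ENSG00000284959 with ENSG00000286686, GUSBP11 with ENSG00000290440, ENSG00000204876, ENSG00000267968, LINC01971 with ENSG00000289140, ENSG00000287387 and PKD2L2-DT. The peak at the start of ENSG00000284959, also within 1 kb of that of ENSG00000286686, ranked 193, 6087, 206 and 1663, without an SF-1 consensus in any list. PKD2L2-DT is named as a divergent transcript, but as annotated it starts inside PKD2L2 on the opposite strand, 1426 bp from the start of that gene. It ranked 1113, 8811, 5510 and 5128, also without an SF-1 consensus. GUSBP11, a transcribed copy related to the beta-glucuronidase gene, had peaks over its shared site at ranks 3545, 4924, 1123 and 4699, and 1 off it, at rank 750 of the overexpressed Perseus list alone. In its peaks 17.1% of the 32-base words occur more than once in the genome. Whether reads of other copies contribute there was not tested.

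**Figure D4:**
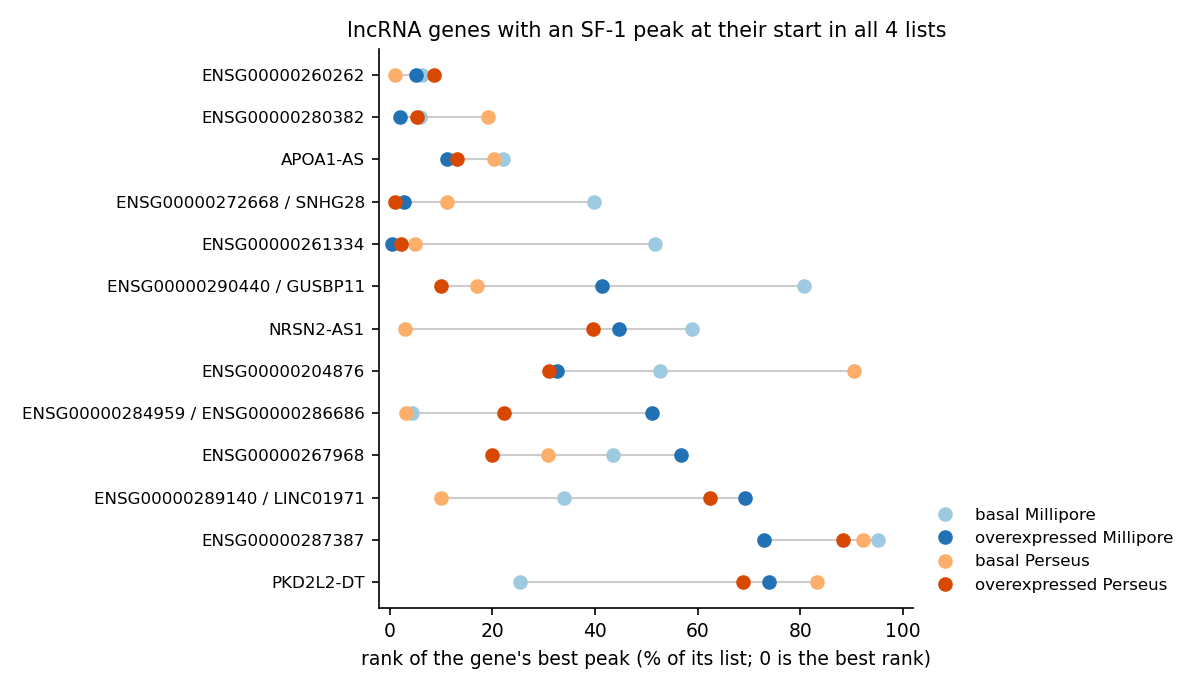
Rank of the best peak of each lncRNA gene found in all 4 lists, as a percentage of its list (horizontal axis, 0 is the best rank), for the 13 groups of starts (vertical axis), 1 point per list. ENSG00000260262, ENSG00000280382 and APOA1-AS lie toward the better-ranked end of every list; the others spread widely. For ENSG00000261334 in the basal Perseus list and GUSBP11 in the overexpressed Perseus list the best peak lies off the site shared by the lists.

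The best-ranked members differed between antibodies. With the Millipore antibody the peak at MIR7-3HG (chr19:4769501-4769949, 682 bp downstream of the start, in an exon) ranked 4 at basal and 7 at overexpressed dosage, with identical borders. MIR7-3HG is the host of the microRNA miR-7-3, which belongs to a family abundant in neuroendocrine tissue. With the Perseus antibody this gene had a peak only at overexpressed dosage, at rank 5357, and that peak did not cover the NRSF/REST match. KRT7-AS, antisense to a keratin gene, ranked 81 in the basal Millipore, 257 in the overexpressed Millipore and 519 in the overexpressed Perseus list, and had no member in the basal Perseus list. The SF-1 consensus was in all 3 of its peaks. ENSG00000267555 ranked 33 in the basal Millipore list, and ENSG00000269514 ranked 36 in the overexpressed Millipore list. Next in the latter, after ENSG00000261334, were ENSG00000288901, at 103, and ENSG00000272347, at 107. The peak of ENSG00000288901 was in no other list, and 5 of its 9 words occur elsewhere in the genome. That of ENSG00000272347 held the SF-1 consensus and overlapped peaks of both Perseus lists.

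With the Perseus antibody LINC00273 ranked 54 at basal and 72 at overexpressed dosage. Second at basal dosage was ENSG00000260262, at 67, and next TEKT4P2, at 71. TEKT4P2 lies within 1 Mb of a long run of unknown bases, and 7 of the 10 words of its peak occur elsewhere in the genome. LINC00449 and ENSG00000289046 followed at 120 and 125. At overexpressed dosage ENSG00000289046 ranked 82, close to ENSG00000272668 and SNHG28 at 81, ahead of ENSG00000290046 at 112 and ENSG00000290319 at 123. Peaks with a repeated word made up 18.7% of the basal and 12.8% of the overexpressed Perseus members, against 2.27 and 3.97% in the Millipore lists. Perseus peaks away from all starts had them about as often, in 17.2 and 15.2%, and Perseus peaks at protein-coding starts in 3.83 and 3.99%. Near a long run of unknown bases lay 12 basal and 6 overexpressed Perseus members and 1 and 2 Millipore members. Without the latter the dosage differences in the lncRNA-start share were 1.19 points for Millipore and 0.187 points for Perseus. Their part in the Perseus members was not tested further.

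In the Perseus lists members were more frequent in the best-ranked part of the list than in the last. In the best-ranked of 4 equal parts of the list they made up 6.41% (5.33 to 7.69%) of the basal and 7.30% (6.20 to 8.57%) of the overexpressed peaks, which is 1.93 (0.387 to 3.50) and 3.43 points (1.97 to 4.92) above the last part. In the Millipore lists the same differences were 0.544 (-0.684 to 1.80) and 0.771 points (-0.108 to 1.66), and both intervals hold 0. The later Perseus parts showed no steady fall, at 4.23, 3.33 and 4.47% for basal and 4.24, 3.49 and 3.86% for overexpressed dosage. The median rank of Perseus members lay at 42.4 and 34.5% of the list. It lay at 40.2 and 42.6% for peaks at protein-coding starts and at 54.4 and 53.6% for peaks elsewhere. Better ranks than elsewhere were therefore not particular to lncRNA starts.

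lncRNA classes were represented unevenly. By symbol, 8 of 81 microRNA hosts (9.88%, 5.09 to 18.3%), 5 of 27 small nucleolar RNA hosts (18.5%, 8.18 to 36.7%), 128 of 1829 antisense genes (7.00%, 5.92 to 8.26%), 105 of 2242 LINC genes (4.68%, 3.88 to 5.64%) and 16 of 588 divergent transcripts (2.72%, 1.68 to 4.37%) had a member, beside 64 of 917 genes with another symbol (6.98%, 5.50 to 8.81%) and 492 of 12951 known by identifier only (3.80%, 3.48 to 4.14%). The intervals of the antisense genes, of both kinds of host and of the genes with another symbol lay above that of all lncRNA genes, 4.39% (4.10 to 4.69%). The share of the divergent transcripts was lower, with an interval that overlapped that of all lncRNA genes. The rule bars positions within 1 kb of a protein-coding start, and its part in this share was not tested. Of the antisense genes 14 had a member in at least 3 lists, among them APOA1-AS, NRSN2-AS1, KRT7-AS, KTN1-AS1 and HOXA10-AS. Bound genes started inside a protein-coding gene on its opposite strand in 39.6% (36.3 to 43.0%) of cases, against 30.0% (29.3 to 30.6%) of all genes the rule can reach, and lay over 50 kb from a protein-coding start in 30.9% (27.9 to 34.2%) against 44.0% (43.3 to 44.7%).

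MIR7-3HG was the microRNA host with the best rank. MIR194-2HG, host of a miR-194 copy, ranked 9078 in the overexpressed Millipore, 489 in the basal Perseus and 956 in the overexpressed Perseus list, and both Perseus peaks held the SF-1 consensus. MIRLET7A1HG, which hosts members of the let-7 family, had 3 peaks in the basal Perseus list, the best at rank 309, and none in the other lists. MIRLET7IHG ranked 4846 and 4796 in the Perseus lists alone. Single members were found at MIR9-1HG, MIR23AHG, MIR205HG and MIR762HG. Besides SNHG28, the small nucleolar RNA hosts were SNHG7, at ranks 2682 and 5088 in the Perseus lists, and SNHG10, SNHG26 and SNHG30, each in 1 list.

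Of 23 well-known lncRNAs listed, 21 were in the annotation and 7 had a member (33.3%, 17.2 to 54.6%), beside 4.39% of all lncRNA genes the rule can reach. The list holds MIR7-3HG and was drawn up with earlier results of these data known, so this share is a description only. NEAT1, the scaffold of nuclear paraspeckles, ranked 263 in the basal Perseus list, with a peak at chr11:65189701-65189899, at -445 bp from its start. MALAT1, a nuclear speckle RNA encoded next to NEAT1, ranked 5248 in the overexpressed Perseus list (chr11:65265001-65265149, at -36 bp). NORAD, which binds Pumilio proteins, ranked 1510 and 3368 in the Perseus lists, and DLEU2, the host of the miR-15a and miR-16-1 cluster, ranked 5774 and 2644. HOTAIR, transcribed from the HOXC locus, and DLEU1 each had 1 Perseus peak, at 3326 of the overexpressed and 6584 of the basal list. None of these 6 genes had a Millipore member, and none of their peaks held the SF-1 consensus. MIR7-3HG, the remaining listed gene with a member, ranked 4 and 7 in the Millipore lists. Among all 818 genes with a member, 94 had a basal and 386 an overexpressed Millipore member, 34 of them both. Only 17.4% of the basal and 13.4% of the overexpressed Perseus members held the consensus. Both absences were thus common among lncRNA genes with a member. Of 11 imprinted lncRNAs listed, 10 were annotated and 0 had a member. The interval, 0 to 27.8%, holds the share of all lncRNA genes, so this count says nothing particular about imprinted genes.

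Near genes of steroid synthesis, cholesterol supply and adrenal or gonadal development, members were not separable in frequency from the background. Of 35 such genes 3 (8.57%, 2.96 to 22.4%) had an lncRNA gene with a member within 100 kb of their start, each a different one, beside 9.77% of all protein-coding genes. ENSG00000261821 starts 2211 bp from the start of CYP11A1, whose product catalyses the first step from cholesterol, and had peaks in both overexpressed lists, at rank 4917 with Millipore (chr15:74658101-74658349) and 917 with Perseus (chr15:74658251-74658449), in an exon of the lncRNA. ENSG00000267122 starts 33744 bp from AMH, the gene of anti-Mullerian hormone, at rank 8411 in the overexpressed Millipore list. ENSG00000285632 lies 80703 bp from STAR, which moves cholesterol into mitochondria, at rank 3045 in the overexpressed Perseus list. None of the 3 was present in a basal list. Among all 818 lncRNA genes with a member, 94 had one in the basal Millipore and 312 in the basal Perseus list, 31 of them in both. Absence from both basal lists was thus common, and this count says nothing particular about dosage.

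Basal members were found again at overexpressed dosage more often than the other peaks of their list. Of all basal Millipore peaks 12.4% overlapped an overexpressed Millipore peak by at least 1 bp. Of the members 24 of 88 did, or 27.3% (19.1 to 37.4%), which is 15.2 points (6.92 to 25.3) above the other peaks. Of all basal Perseus peaks 29.5% were found at overexpressed dosage, and of the members 128 of 305, or 42.0% (36.6 to 47.6%), 13.1 points (7.59 to 18.8) above the other peaks. Seen from the overexpressed side, the list shares were 4.53% for Millipore and 26.2% for Perseus, and those of the members 6.08% (4.09 to 8.96%) and 37.2% (32.3 to 42.4%). The Millipore interval of the difference held 0 (1.60 points, -0.433 to 4.50), and the Perseus difference was 11.6 points (6.56 to 16.8).

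Between antibodies the picture was alike from 3 of 4 sides. At basal dosage 11.6% of the Millipore peaks overlapped a Perseus peak, against 25.0% (17.1 to 35.0%) of the members, and 7.65% of the Perseus peaks overlapped a Millipore peak, against 6.89% (4.55 to 10.3%) of the members. At overexpressed dosage the list shares were 11.5% from the Millipore and 18.5% from the Perseus side, and the members' shares 23.3% (19.3 to 27.8%) and 24.7% (20.5 to 29.5%). The basal Perseus members did not differ from the other peaks of their list beyond counting error (-0.800 points, -3.24 to 2.67).

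Against peaks at protein-coding starts, the members differed beyond counting error in 2 of these 8 shares. Members minus protein-coding-start peaks was 2.29 points (0.0209 to 5.30) for overexpressed Millipore peaks found at basal dosage and 4.02 points (1.52 to 7.50) for basal Perseus peaks found with Millipore. It was -4.25 points (-15.1 to 7.65) for basal Millipore peaks found at overexpressed dosage and 0.663 points (-5.22 to 6.72) for basal Perseus peaks. Of the 94 lncRNA genes with a basal Millipore member 34, or 36.2% (27.2 to 46.2%), had one at overexpressed dosage, beside 38.5% (32.1 to 45.4%) of protein-coding genes. With the Perseus antibody 153 of 312, or 49.0% (43.5 to 54.6%), did so, beside 50.8% (48.5 to 53.0%) of protein-coding genes.

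The SF-1 consensus was found in 166 of the 1123 members. It was in 16.0% of all basal Millipore peaks and in 25 of 88 members, or 28.4% (20 to 38.6%). In the overexpressed Millipore list it was in 10.9% of all peaks and in 41 of 378 members, 10.8% (8.10 to 14.4%). In the basal Perseus list it was in 21.6% of all peaks and in 53 of 305 members, 17.4% (13.5 to 22.0%), and in the overexpressed Perseus list in 17.2% of all peaks and in 47 of 352 members, 13.4% (10.2 to 17.3%). Windows of the same width 5 kb to each side of the members held it in 0.571, 1.99, 1.49 and 0.713% of cases, so members stood above their surroundings in every list, by 27.8 (19.1 to 38.0), 8.86 (5.83 to 12.5), 15.9 (11.8 to 20.6) and 12.6 points (9.34 to 16.6).

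Against the other peaks of their own list the members went different ways. The basal Millipore members held the consensus more often, by 12.7 points (4.27 to 22.9), and the overexpressed Perseus members less often, with a difference of -4.07 points (-7.35 to -0.0226). For the overexpressed Millipore list the difference was -0.0189 points (-2.83 to 3.56) and for the basal Perseus list -4.46 points (-8.43 to 0.300), both with an interval that holds 0. After weighting over GC strata the basal Millipore difference was 8.71 points (-0.799 to 18.2) and the overexpressed Perseus difference -3.28 points (-6.96 to 0.403), so that neither interval excluded 0. The consensus separated members from protein-coding-start peaks in no list, the differences being 7.76 (-2.79 to 19.2), 0.940 (-2.25 to 4.75), 2.85 (-1.37 to 7.76) and 2.44 points (-1.04 to 6.60). The 7-letter core AAGGTCA did so in both Perseus lists. It was in 13.1% of the basal and 13.1% of the overexpressed Perseus members, against 7.61 and 5.86% of the peaks at protein-coding starts, differences of 5.51 (1.91 to 9.91) and 7.21 points (3.89 to 11.2). With the Millipore antibody these were 7.02 (-2.79 to 18.0) and 2.22 points (-0.487 to 5.60), with intervals that hold 0.

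With the Millipore antibody a smaller share of members held the consensus at overexpressed than at basal dosage, a difference of -17.6 points (-28.1 to -8.48). With the Perseus antibody the difference was -4.02 points (-9.65 to 1.49). Members that overlapped a peak of any other list held it more often than members found in 1 list alone: 48.6% (33.0 to 64.4%) against 15.1% (7.85 to 27.1%) in the basal Millipore list, 22.6% (15.9 to 31.1%) against 5.70% (3.49 to 9.20%) in the overexpressed Millipore list, 23.4% (17.4 to 30.7%) against 11.3% (7.15 to 17.3%) in the basal Perseus list and 19.8% (14.6 to 26.3%) against 6.86% (3.97 to 11.6%) in the overexpressed Perseus list. The interval of the difference excluded 0 in each list. No such split of the other peaks was set beside it, so these values cannot show whether the contrast is particular to lncRNA starts.

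**Figure D5:**
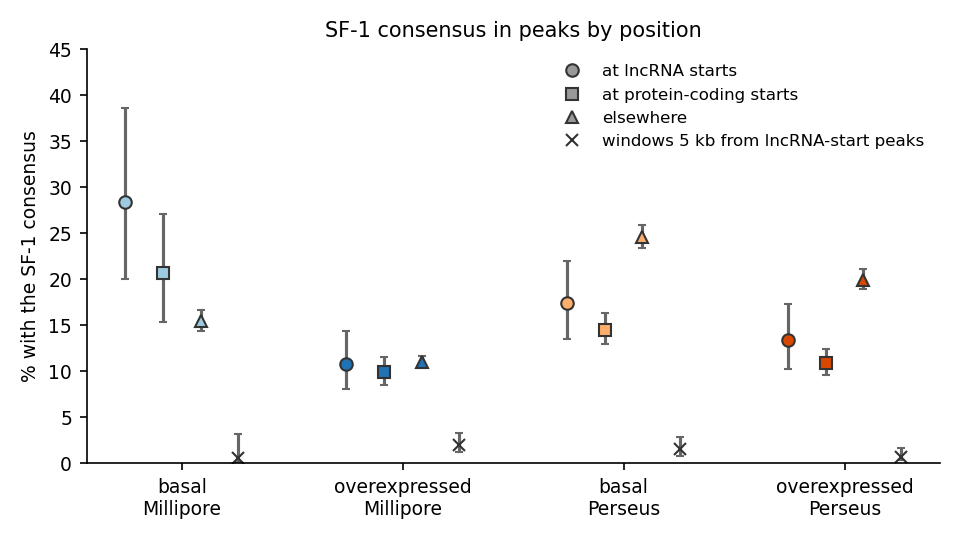
Percentage of sequences with the SF-1 consensus (vertical axis) in each list (horizontal axis), for peaks at lncRNA starts, peaks at protein-coding starts, peaks elsewhere and windows 5 kb from the lncRNA-start peaks, with 95% Wilson intervals. The windows lie at 0.571 to 1.99% and every kind of peak lies above them; at lncRNA starts the basal Millipore list is highest, at 28.4%.

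Of the sequence elements common to promoters, the GC box was more frequent in members than in peaks away from all starts in 3 of 4 lists, and the CCAAT box was not more frequent in any. The GC box GGGCGG, the site of Sp1, was present in 4.55% (1.78 to 11.1%), 22.5% (18.6 to 27.0%), 39.7% (34.3 to 45.3%) and 46.6% (41.4 to 51.8%) of the members, in the list order used above. In peaks at protein-coding starts it was in 17.9, 40.6, 52.8 and 53.5%, and in peaks elsewhere in 2.81, 7.99, 9.49 and 10.7%. The basal Millipore members were near the 3.48% of all peaks of their list. The ETS site CCGGAAG was in 1.14, 4.50, 5.90 and 7.95% of the members, beside 5.43, 7.38, 11.8 and 9.75% at protein-coding starts and 0.558, 1.33, 1.40 and 1.44% elsewhere. The CCAAT box CCAAT was in 20.5, 15.9, 12.8 and 13.1% of the members and in 22.0, 18.6, 18.2 and 17.9% of the peaks elsewhere. A ratio of observed to expected CpG of at least 0.6, as in CpG islands, was reached by 12.5% (7.13 to 21.0%), 34.7% (30.0 to 39.6%), 66.6% (61.1 to 71.6%) and 64.2% (59.1 to 69.0%). These shares were lower than at protein-coding starts, where they were 38.0, 70.4, 83.8 and 83.1%, and above those elsewhere, 3.96, 6.79, 13.5 and 14.4%. Elements of this kind are short and frequent in GC-rich sequence, and a match is no evidence that its factor was bound.

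The NRSF/REST consensus, searched by name with up to 4 mismatches, was in 6 members at 4 genes. Besides both Millipore peaks at MIR7-3HG, these were DPY19L2P3, at rank 5199 with basal and 3548 with overexpressed SF-1, both Perseus, and ENSG00000262456 and ENSG00000290094, at 1466 and 6874 in the overexpressed Perseus list. None of the 6 held the SF-1 consensus. In the basal Millipore list 1 of 88 members (1.14%, 0.201 to 6.16%) held it, against 11 of 184 peaks at protein-coding starts (5.98%, 3.37 to 10.4%). That member share was close to the 1.12% of all peaks of the list. In the overexpressed Perseus list it was in 3 of 352 members (0.852%, 0.290 to 2.48%), 0.556% (0.311 to 0.993%) of peaks at protein-coding starts and 0.268% of all peaks. For the overexpressed Millipore list these shares were 0.265, 1.40 and 0.739%, and for the basal Perseus list 0.328, 0.343 and 0.181%. In every list the interval of the members overlapped that of the peaks at protein-coding starts and that of all peaks. Members were thus not separable from either in this consensus. A CTCF-type sequence was in 1, 7, 2 and 2 members. In the overexpressed Millipore list this was 1.85% (0.900 to 3.77%) of members against 0.353% (0.261 to 0.476%) of all peaks, and the intervals did not overlap. In the other lists it was in 1.14, 0.656 and 0.568% of members against 0.182, 0.423 and 0.537% of all peaks, with intervals that overlapped.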

How the data were processed

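The deposited lists give the position of each peak and, as a score column, its rank; the authors' quantity behind the rank is not stated. The authors aligned the Illumina reads on hg19 by ELAND v2; peak calling was by SeqPeak in CisGenome v2, on the pooled libraries of a condition with input as control; the submitters' processing notes also name CASAVA 1.6. Pooling leaves no replicates. Deeper libraries give more and weaker peaks, and the depth per list is not given in the sources used here.

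Positions were compared with GRCh37 and GENCODE version 44 mapped to it, using the outermost start of each gene on 24 chromosomes. Coordinates are 1-based, and peak starts lie on a grid of 50 bp. Shares carry Wilson intervals, differences Newcombe intervals, and differences over GC strata Mantel-Haenszel weights. Repeats were measured as 32-base words that occur more than once in the genome. The genes named are those with members in all 4 lists, the 5 best-ranked members of each list, members with the NRSF/REST consensus, listed well-known and imprinted lncRNAs, symbol classes, and members within 100 kb of 35 steroid genes; the sequences to print were picked after their values were seen. Members and lists were chosen with earlier results of these data known. The counting was tested on simulated data. Software was Python 3.11.15, numpy 2.4.6, pandas 2.3.3, pysam 0.24.0, matplotlib 3.10.9 and samtools 1.23.1.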

Additional observations from a re-analysis of the deposited data

Results flagged for a closer look

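The change of the lncRNA-start share with dosage differed between antibodies. The odds of a peak lying at an lncRNA start were 1.60 times as high (1.27 to 2.03) at overexpressed as at basal dosage with the Millipore antibody, and 1.03 times (0.877 to 1.20) with the Perseus antibody. The ratio of these odds ratios was 1.56 (1.18 to 2.07), which excludes 1 and was the reason for a closer look. The interval treats peaks as independent and rests on 1 list per group. Peaks at protein-coding starts changed alike, from 4.19 to 12.6% of the list with Millipore and from 26.4 to 26.6% with Perseus. This difference between antibodies is therefore not particular to lncRNA starts. After weighting over strata of GC content the dosage differences were -0.293 points with the Millipore and -0.271 points with the Perseus antibody. With the 4393 best-ranked peaks of every list, so that the lists were of equal length, they were 1.43 points (0.756 to 2.13) and 0.501 points (-0.417 to 1.42). The part of GC content in the ratio was not tested.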

How the results depend on the processing

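Each of the 13 main results was recomputed under its alternatives, 86 values in all. Of 60 differences, 49 kept their direction and 43 also their side of the threshold; 13 of 18 gene counts stayed within 1.5 times the main count, and 8 of 8 sharing percentages within the interval of the main value. Libraries could not be left out in turn, because each list was called on pooled libraries. No paired analysis was possible because each group is 1 list. The Millipore dosage difference in the lncRNA-start share lay between 0.638 and 2.43 points except under weighting over GC strata, where it reversed to -0.293. The Perseus dosage difference, not separable from 0, reversed to -0.0400 with starts of all transcripts and to -0.271 under GC weighting. The antibody differences kept their sign and excluded 0 under every alternative tried. The 34 lncRNA genes with a member at both Millipore dosages became 21 within 500 bp and 15 in the better-ranked 50%. The 17 genes in all 4 lists became 9 within 500 bp, 27 within 2 kb and 5 in the better-ranked 50%. The SF-1 consensus difference of basal Millipore members fell to 7.76 points against protein-coding starts and to 8.71 under GC weighting, and both intervals then held 0. For overexpressed Millipore members it reversed to 0.285 within 200 bp of the centre, 0.940 against protein-coding starts, 8.86 against windows 5 kb away and 1.09 in the better-ranked 50%. For basal Perseus members it excluded 0 within 200 bp of the centre, at -6.10, and without peaks near unknown bases, at -4.99, and reversed to 2.85 against protein-coding starts and 15.9 against windows. For overexpressed Perseus members it no longer excluded 0 with the 7-letter core AAGGTCA, at -1.01, or under GC weighting, at -3.28, and reversed to 2.44 and 12.6 against protein-coding starts and windows. Depth of the lists is unknown and limits what absence from a list says.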
